A study of Mus musculus with 8 samples.

Results

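The IFIT family comprised 4 genes here, Ifit1, Ifit2, Ifit3 and Ifit3b, among 54146 genes quantified by RNA-seq in primary mouse cortical astrocytes. Members were found by their gene symbols and were present in all 8 libraries. The family was chosen by the values of Ifit1, which in GSTM1 knockdown (KD) astrocytes was lower without stimulation and higher under TNF-α. The values of Ifit1 are therefore given as a description, with no test, while Ifit2, Ifit3 and Ifit3b were tested.

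IFIT proteins are interferon-induced proteins built of tetratricopeptide repeats, a fold that binds RNA or other proteins. Cells make little of them until an RNA sensor or a type I interferon activates transcription factors of the STAT and IRF families, which bind the interferon-stimulated response element (ISRE) in their promoters. Ifit1 binds viral RNA whose cap lacks the methyl marks of host mRNA, and Ifit2 and Ifit3 are partners that restrict viruses and influence cell survival. Ifit3b is a mouse duplicate of Ifit3. In the brain, astrocytes and other glia express Ifit genes during viral infection and inflammation.

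The 4 groups were control KD and GSTM1 KD astrocytes, each unstimulated (the basal level) or given 50 ng/ml of TNF-α during 6 h. Each group had 2 biological replicates. All groups came from cortical glia of newborn C57BL/6 mice and had been infected with a lentivirus and selected with puromycin, so no library represents uninfected cells. The lentivirus carried an shRNA against Gstm1 (GSTM1 KD) or a non-silencing shRNA (control KD), and astrocytes were enriched by shaking off other glia and by removing CD11b-positive cells. Culture flasks pooled the cortices of about 2 pups. Gstm1 encodes a glutathione S-transferase, and the question was how its knockdown changes the response to TNF-α. What the replicate numbers mark is not stated, so the p-values measure the spread between these cultures.

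Libraries held 17349682 to 34434615 counts, and 19371 to 21557 genes had a count. Gstm1 was 10.1-fold lower in GSTM1 KD at the basal level (adjusted p = 0.0132, edgeR quasi-likelihood test) and 12.8-fold lower after TNF-α stimulation (adjusted p = 0.00981). All 10 astrocyte markers were above 1 CPM (counts scaled to a common library total) in every library. Their summed level, led by Gfap, was 1793 and 4129 TPM (RSEM's scaled level per transcript length) in unstimulated control KD libraries, and 4131 and 6236 TPM in those of GSTM1 KD. Under TNF-α it was 1772 and 3942 TPM against 3913 and 5945 TPM. In each state the lower GSTM1 KD library was level with the higher control KD library, and replicate 1 was the lower of each pair. Without stimulation Gfap, Slc1a2, Aldh1l1, Gja1, Glul and Aldoc were higher in both GSTM1 KD libraries, while Aqp4 and Slc1a3 overlapped. Sox9 and S100b were lower there. Sox9 stood at 116 and 181 TPM in control KD and at 108 and 111 TPM in GSTM1 KD. S100b stood at 10 and 12.8 TPM against 4.23 and 4.52 TPM. The 12 microglia and macrophage markers summed to between 53.5 and 66.4 TPM in all libraries. Of these, C1qa, named after its values were seen, ran from 0.45 to 4.62 TPM and was higher in replicate 1 than in replicate 2 of every group. Of the 6 other marker lists, 3 separated the knockdowns in both states, while the fibroblast, ependymal and plasmacytoid dendritic cell lists overlapped in at least 1 state. Oligodendrocyte lineage markers summed to 533 and 596 TPM in control KD, against 441 and 423 TPM in GSTM1 KD, without stimulation, and to 448 and 479 against 352 and 340.4 TPM with TNF-α. Endothelial markers, of which Cldn5 was at 0 in all libraries, summed to 5.75 to 8.27 TPM in control KD and to 3.18 to 5.4 TPM in GSTM1 KD. Within this list Cdh5 followed the sum with and without TNF-α, while Kdr ran opposite to it in each state. Unstimulated, Kdr stood at 0.18 and 0.37 TPM in control KD, against 0.54 and 0.93 TPM in GSTM1 KD. Flt1 followed the sum without stimulation and overlapped with TNF-α. Pecam1 and Tek reached at most 0.36 TPM. Neuronal markers summed to 276 to 296 TPM in control KD and to 300.5 to 371 TPM in GSTM1 KD. Of these 6, only Map2, Tubb3 and Stmn2 were above 1 CPM in every library. Map2 was higher in GSTM1 KD in both states, while Stmn2 overlapped in both and Tubb3 overlapped with TNF-α. Single genes of a list thus did not all follow its sum. The part of these differences in the Ifit results was not tested.

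The 4 genes lie in a cluster of 99316 bases on mouse chromosome 19 (GRCm38). Ifit2 (ENSMUSG00000045932.12) spans chr19:34550694-34576419, Ifit3 (ENSMUSG00000074896.3) spans chr19:34583531-34588731, Ifit3b (ENSMUSG00000062488.9) spans chr19:34607970-34613401 and Ifit1 (ENSMUSG00000034459.8) spans chr19:34640871-34650009, all on the plus strand. A pair of further Ifit genes on the minus strand, Ifit1bl1 and Ifit1bl2, lie among them. The annotated start of Ifit1bl2 is 127 bases from that of Ifit1, and these genes run in opposite directions. Library kits were directional, but whether counting used the strand is not stated.

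The promoters are shown because the genes share a known control element, the ISRE. Each RefSeq sequence (GRCm38.p6, plus strand) runs from 250 bases before to 50 bases after the start of transcription, and capitals mark matches to the ISRE core word GAAANNGAAA on either strand.
Ifit1 (chr19:34640639-34640938): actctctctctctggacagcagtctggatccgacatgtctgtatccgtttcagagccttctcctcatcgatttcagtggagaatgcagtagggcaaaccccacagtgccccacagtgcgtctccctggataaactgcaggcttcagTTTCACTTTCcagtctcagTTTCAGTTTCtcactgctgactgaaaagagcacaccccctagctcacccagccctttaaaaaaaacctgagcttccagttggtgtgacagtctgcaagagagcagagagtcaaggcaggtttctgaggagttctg
Ifit3 (chr19:34583279-34583578): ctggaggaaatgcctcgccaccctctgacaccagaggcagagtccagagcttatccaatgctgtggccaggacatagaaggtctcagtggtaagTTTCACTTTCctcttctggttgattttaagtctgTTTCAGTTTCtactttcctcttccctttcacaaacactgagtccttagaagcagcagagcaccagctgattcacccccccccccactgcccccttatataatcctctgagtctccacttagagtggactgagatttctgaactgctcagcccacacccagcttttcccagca
Ifit3b (chr19:34607707-34608006): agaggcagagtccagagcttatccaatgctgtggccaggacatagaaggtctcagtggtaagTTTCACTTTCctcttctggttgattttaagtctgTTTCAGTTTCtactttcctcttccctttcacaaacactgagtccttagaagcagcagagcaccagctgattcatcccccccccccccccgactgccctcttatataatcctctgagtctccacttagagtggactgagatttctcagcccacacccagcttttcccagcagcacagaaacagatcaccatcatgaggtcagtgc
Ifit2 (chr19:34550444-34550743): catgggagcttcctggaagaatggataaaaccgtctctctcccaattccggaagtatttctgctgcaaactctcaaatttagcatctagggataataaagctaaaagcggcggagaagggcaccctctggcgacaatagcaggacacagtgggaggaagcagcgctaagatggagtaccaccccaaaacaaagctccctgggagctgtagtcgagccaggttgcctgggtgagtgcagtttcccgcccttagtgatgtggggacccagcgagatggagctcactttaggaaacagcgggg

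The Ifit1, Ifit3 and Ifit3b promoters each held 2 matches, one reading TTTCACTTTC and one reading TTTCAGTTTC on the strand shown. Counted from the start of transcription, they lay at -104 to -95 and -85 to -76 in Ifit1, at -156 to -147 and -122 to -113 in Ifit3, and at -188 to -179 and -154 to -145 in Ifit3b. Over all 32851 promoter windows of this length, 3.44% held the word and 0.225% held it 2 or more times. Neither of the 2 Ifit2 windows held the word, which says only that these letters are not in those windows. A word for NF-κB, GGGANTTTCC, occurs in 0.411% of all windows and in no Ifit window. The Ifit3 and Ifit3b promoters were identical at 258 of 260 aligned bases (99.2%), and both Ifit1 words are also in the window of Ifit1bl2, read from the other strand. Among other interferon-stimulated effectors with a window, 15 of 32 (46.9%) held the ISRE word, and among TNF and NF-κB response genes 0 of 15 did.

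Ifit3 and Ifit3b are near-identical. Their coding sequences matched at 1198 of 1209 bases (99.1%), and 31.7% of the 100-base stretches of the Ifit3 transcript also occur in Ifit3b. RSEM divides reads that fit both genes, so the division of counts between Ifit3 and Ifit3b is uncertain and their values are not independent. Other pairs of the 4 genes were 62.0% to 67.0% identical and shared no stretch of 100 bases.

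At the basal level Ifit3 was the most abundant member in every library. Ifit1 stood at 24 and 26 TPM in control KD and at 16.2 and 12 TPM in GSTM1 KD. Ifit2 stood at 30.3 and 33.2 TPM in control KD and at 28.0 and 23.8 TPM in GSTM1 KD. Ifit3 stood at 139 and 269 TPM in control KD and at 139 and 101 TPM in GSTM1 KD. Ifit3b stood at 16.7 and 35.5 TPM in control KD and at 28.5 and 22.4 TPM in GSTM1 KD. Both GSTM1 KD libraries were thus below both control KD libraries for Ifit1 and Ifit2, as they were for 31.2% of all genes tested in CPM, while the Ifit3b groups overlapped. For Ifit3 the groups met, with the lower control KD library level with the higher GSTM1 KD library. Replicates of control KD differed widely for Ifit3 and Ifit3b, with replicate 1 at 0.526 and 0.477 times replicate 2 in CPM, against 0.932 times for Ifit1.

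In the comparison of GSTM1 KD with control KD at the basal level, Ifit1 was 1.85-fold lower (log2 fold change -0.89, SE 0.177), a value that was used to choose the family. In these bulk libraries fewer expressing cells and less RNA per cell cannot be told apart. None of the other members passed the threshold (adjusted p under 0.05, edgeR), while 5.62% of all 14899 genes tested were called lower and 4.60% higher. The log2 fold change was -0.31 (SE 0.136) for Ifit2, with adjusted p = 0.183 by edgeR. That of Ifit3 was -0.82 (SE 0.323), with adjusted p = 0.15 by edgeR and 0.036 by DESeq2, which called 10.2% of genes lower. With the replicate number as a block, edgeR gave -0.77 for Ifit3 (SE 0.217, adjusted p = 0.0145) and called 4712 of the 14899 genes in either direction. What the replicate numbers mark is not stated. Ifit3b differed by -0.09 (SE 0.352, edgeR adjusted p = 0.878), and its sign depended on 2 libraries: the value was 0.52 without control KD replicate 2 and 0.06 without GSTM1 KD replicate 2. For Ifit3 the difference was -0.30 when control KD replicate 2 was left out, and -1.22 when replicate 1 was.

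After TNF-α stimulation every member was higher in both GSTM1 KD libraries than in both control KD libraries, as were 34.7% of all genes tested (in CPM), and Ifit1 was chosen for being higher. Ifit1 stood at 142 and 128 TPM in control KD and at 571 and 302 TPM in GSTM1 KD. Ifit2 stood at 37.8 and 43.7 TPM in control KD and at 108 and 66.7 TPM in GSTM1 KD. Ifit3 stood at 349 and 449.8 TPM in control KD and at 1545 and 918 TPM in GSTM1 KD. Ifit3b stood at 75.9 and 82.0 TPM in control KD and at 434 and 244 TPM in GSTM1 KD. Among all genes ordered by TPM, Ifit3 moved from rank 455 and 357 in control KD to rank 58 and 129 in GSTM1 KD. The first replicate of GSTM1 KD was the higher for each member, at 1.93, 1.66, 1.72 and 1.82 times the other in CPM for Ifit1, Ifit2, Ifit3 and Ifit3b.

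**Figure D1:**
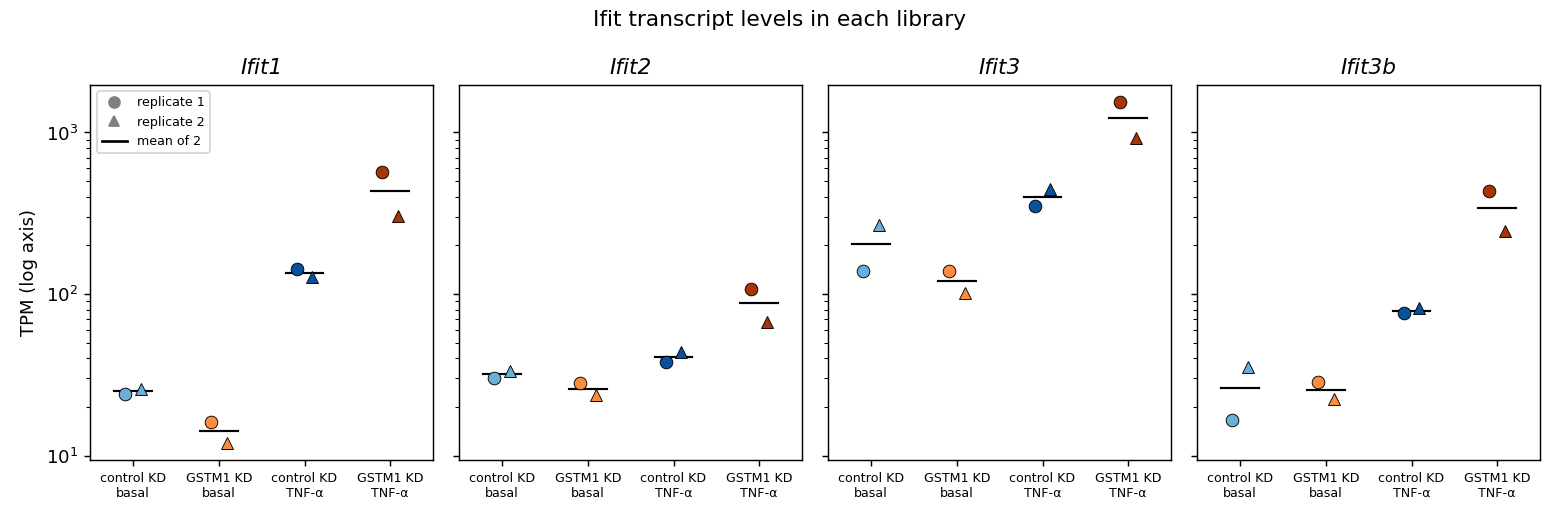
Level of each Ifit gene in TPM (log axis) in the 4 groups; circles and triangles are replicates 1 and 2, and lines are their means. After TNF-α stimulation each GSTM1 KD library is above each control KD library for all 4 genes, and replicate 1 of GSTM1 KD is the highest.

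Relative to control KD after TNF-α stimulation, Ifit1 was 3.09-fold higher in GSTM1 KD (log2 fold change 1.63, SE 0.312), again a value that chose the family. The 3 members tested all rose, where 7.26% of the 14593 genes tested were called higher and 8.92% lower. Ifit2 was 2.10-fold higher (log2 fold change 1.07, SE 0.249, edgeR adjusted p = 0.0433). Ifit3 was 2.95-fold higher (log2 fold change 1.56, SE 0.286, edgeR adjusted p = 0.0264). Ifit3b was 4.10-fold higher (log2 fold change 2.04, SE 0.288, edgeR adjusted p = 0.0169). With the counts of Ifit3 and Ifit3b summed as 1 gene, the log2 fold change was 1.66 (SE 0.288, edgeR adjusted p = 0.0241).

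Leaving out each library changed the size of these differences and, in 1 case, the calls. Without GSTM1 KD replicate 1 the differences were 0.67 for Ifit2 (edgeR adjusted p = 0.128), 1.13 for Ifit3 (edgeR adjusted p = 0.0865) and 1.55 for Ifit3b (edgeR adjusted p = 0.0648) on the log2 scale. In that fit edgeR called 0 of 14822 genes in either direction, Gstm1 included, while 3273 genes (22.1%), among them the 3 members, had an unadjusted p under 0.05. GSTM1 KD then has 1 library, which is assumed to vary like those of control KD. The part of this in the lost calls was not tested. Leaving out any other library kept all 3 past the threshold. In GSTM1 KD after TNF-α stimulation the 12 microglia and macrophage markers summed to 64.9 TPM in replicate 1 and 53.5 TPM in replicate 2, and C1qa stood at 2.38 and 1.12 TPM. In control KD the list summed to 59 and 57 TPM and C1qa stood at 4.36 and 1.13 TPM, and there the members differed between replicates by ratios of 0.765 (Ifit3) to 1.09 (Ifit1) in CPM.

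**Figure D2:**
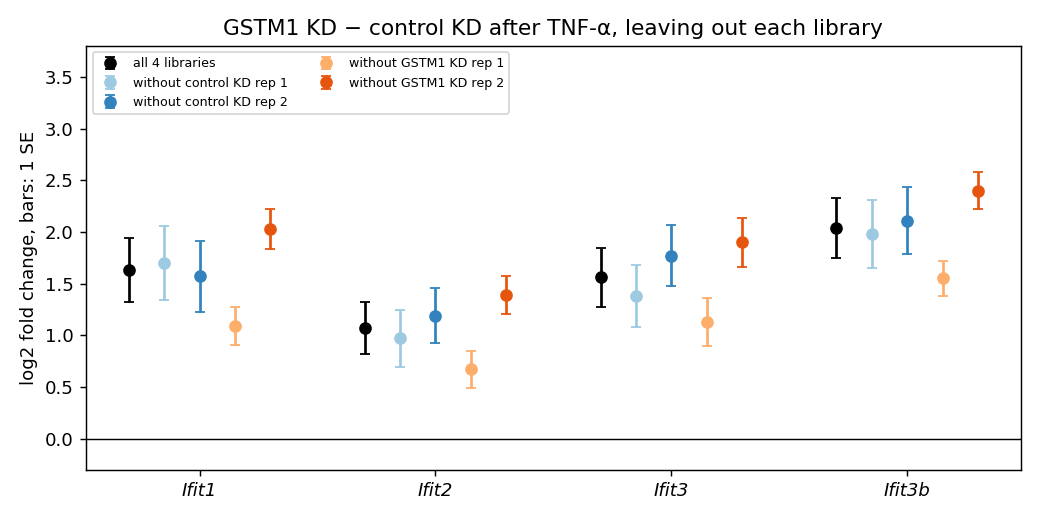
Log2 fold change of GSTM1 KD against control KD after TNF-α stimulation (bars, 1 SE) with all 4 libraries and with each left out. Every estimate is above 0, and the lowest for each gene is that without GSTM1 KD replicate 1.

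With TNF-α, Ifit2, Ifit3 and Ifit3b passed the threshold by edgeR in GSTM1 KD and not in control KD. Ifit1 was chosen by its values in these same libraries, so its responses are given with no test. In control KD, Ifit1 was 5.48-fold higher with TNF-α than without (log2 fold change 2.45, SE 0.303). Of the other 3 members, 0 passed by edgeR, where 2.10% of 15332 genes were called higher and 0.528% lower, although Ifit3b and Ifit3 had unadjusted p of 0.00385 and 0.0294. Ifit3b had a log2 fold change of 1.62 (SE 0.388), at adjusted p = 0.0911 by edgeR and 0.000184 by DESeq2, which called 3.63% of genes higher. Ifit3 was at 0.99 (SE 0.366, edgeR adjusted p = 0.302) and Ifit2 at 0.42 (SE 0.231, edgeR adjusted p = 0.59). Both TNF-α libraries were above both basal libraries for each of the 4 genes, as they were for 16.2% of all genes in CPM; in GSTM1 KD the same held for the 4 genes and for 22.4% of all genes. The responses of Ifit3 and Ifit3b were 0.60 and 1.18 without replicate 1 of unstimulated control KD and 1.54 and 2.26 without its replicate 2.

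In GSTM1 KD the response of Ifit1 was 31.9-fold (log2 fold change 4.99, SE 0.34). The other 3 members rose, where 2.35% of genes were called higher and 0.294% lower. Ifit3b rose 13.7-fold (3.78, SE 0.418, edgeR adjusted p = 0.00478) and Ifit3 rose 10.5-fold (3.40, SE 0.398, edgeR adjusted p = 0.00598). Ifit2 rose least, 3.54-fold (1.82, SE 0.238, edgeR adjusted p = 0.00923). The order Ifit1, Ifit3b, Ifit3, Ifit2 held in both knockdowns, although the estimates for Ifit3b and Ifit3 lay within their standard errors of each other in GSTM1 KD. The first place of Ifit1 in GSTM1 KD is in part fixed by its choice for low and high values there. Without replicate 1 or replicate 2 of unstimulated GSTM1 KD the responses were 1.98 and 1.69 for Ifit2, 3.65 and 3.19 for Ifit3 and 3.97 and 3.62 for Ifit3b. Their edgeR adjusted p-values were then between 0.0674 and 0.121, and those fits called 0.508% and 0.468% of all genes higher.

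**Figure D3:**
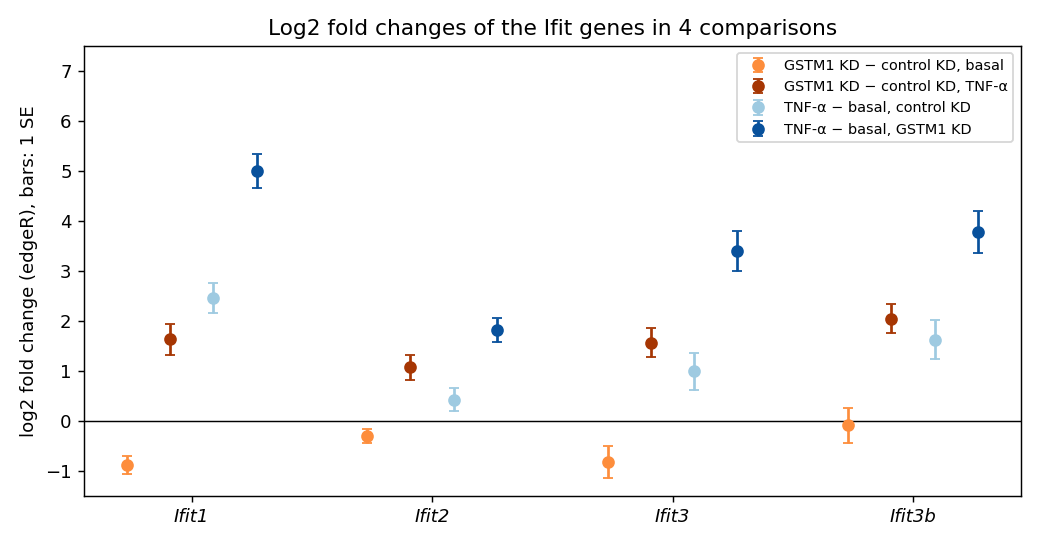
Log2 fold changes of the Ifit genes (bars, 1 SE) for GSTM1 KD against control KD in each state and for TNF-α against the basal level in each knockdown. The knockdown difference is above 0 under TNF-α for all 4 genes, and without stimulation it is below 0 for Ifit1, Ifit2 and Ifit3 and within 1 SE of 0 for Ifit3b. Ifit1 has the largest response to TNF-α of the 4 genes in both knockdowns, which in GSTM1 KD is in part fixed by its choice.

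The difference between the responses (the knockdown by stimulation interaction) was above 0 for all members. It was 2.54 on the log2 scale for Ifit1 (SE 0.417), which follows from the values that chose it and has no test. For Ifit2 it was 1.41, for Ifit3 2.41 and for Ifit3b 2.15, with unadjusted p of 0.0034, 0.00226 and 0.00511 in edgeR's quasi-likelihood test. The adjusted p was 1 for each of them. By edgeR 0 of 15332 genes (0%) passed in either direction, and 295 genes (1.92%) had an unadjusted p under 0.05. DESeq2 called 0.143% of genes as higher in this contrast, and these included Ifit2 (adjusted p = 0.0343), Ifit3 (adjusted p = 0.00104) and Ifit3b (adjusted p = 0.0135). The calls therefore depended on the test. The difference for Ifit3b was 1.52 without replicate 2 and 2.59 without replicate 1 of unstimulated control KD.

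The make-up of the family shifted with TNF-α. The 4 genes together summed to 210.4 and 363 TPM in unstimulated control KD libraries, against 212 and 159 TPM with GSTM1 KD. Under TNF-α the sums were 604 and 704 TPM for control KD, against 2658 and 1531 TPM for GSTM1 KD. Ifit3 carried 57.7% to 73.9% of the sum in every library. Ifit1 was below Ifit2 in all basal libraries, at 0.794 and 0.785 times its TPM in control KD, against 0.578 and 0.502 times in GSTM1 KD. After TNF-α stimulation Ifit1 exceeded Ifit2 in every library, by 3.75 and 2.93 times in control KD, against 5.28 and 4.53 times in GSTM1 KD. The separation of these ratios between the knockdowns is in part fixed by the choice of Ifit1 for its low and high values. The ratios are given as a description, with no test.

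The ratio of Ifit3b to Ifit3 without stimulation was 0.120 and 0.132 in control KD, against 0.205 and 0.221 in GSTM1 KD. With TNF-α it was 0.217 and 0.182 in control KD, against 0.281 and 0.265 in GSTM1 KD. In each state the GSTM1 KD libraries were the higher. Because reads are shared between the paralogs, these ratios carry the uncertainty of their division.

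**Figure D4:**
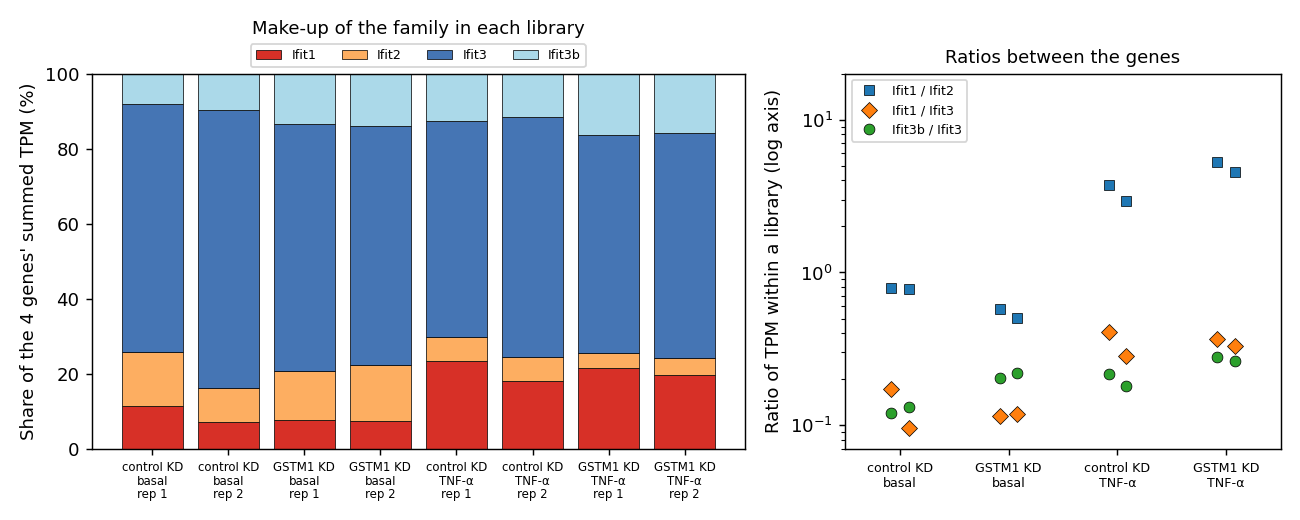
Left, share of each Ifit gene in the summed TPM of the family in each library (%); right, ratios of TPM between pairs of members within each library (log axis), with replicate 1 left of replicate 2. The Ifit1 to Ifit2 ratio is below 1 in all basal libraries and between 2.93 and 5.28 after TNF-α stimulation.

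The remaining Ifit genes of the cluster were low. Ifit1bl1 had 12 to 51 counts per library, and Ifit1bl2 had 21 to 141 counts. Neither passed the threshold by edgeR in any comparison. At the basal level the log2 fold change in GSTM1 KD against control KD was 1.44 for Ifit1bl1 (SE 0.639, edgeR adjusted p = 0.189). For Ifit1bl2 it was 0.90 (SE 0.357, edgeR adjusted p = 0.155). The TNF-α response of Ifit1bl1 was 0.15 in control KD (SE 0.664) and -0.36 in GSTM1 KD (SE 0.601). For Ifit1bl2 the log2 fold change in GSTM1 KD against control KD after TNF-α stimulation was 1.57 (SE 0.411), with adjusted p = 0.0555 by edgeR and 0.0108 by DESeq2, which called 9.97% of genes higher. Its TNF-α response in GSTM1 KD was 1.85 (SE 0.379), with adjusted p = 0.0574 by edgeR and 0.00417 by DESeq2, which called 3.42% of genes higher. A share of 3.29% of the 100-base stretches of Ifit1 also occurs in Ifit1bl2, so a few of its counts may belong to reads of Ifit1.

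Upstream of the Ifit genes are the sensors of viral RNA and DNA and their kinases. None of the 10 in this list passed at the basal level between GSTM1 KD and control KD, where 4.60% of all genes were called higher and 5.62% lower. After TNF-α stimulation 3 of 10 were higher and 1 of 10 lower in GSTM1 KD, where 7.26% of all genes were called higher and 8.92% lower. The median log2 fold change of the list was 0.02, beside -0.01 for all genes tested. The RNA sensor genes Ddx58 (RIG-I; 1.35, SE 0.192, edgeR adjusted p = 0.017), Ifih1 (MDA5; 1.26, SE 0.234, edgeR adjusted p = 0.0272) and Tlr3 (1.06, SE 0.236, edgeR adjusted p = 0.04) were higher. Tmem173 (STING), the adaptor of DNA sensing, was lower (-1.88, SE 0.425, edgeR adjusted p = 0.0413), with 10 and 5 counts against 30 and 25 counts in control KD. The share of the list called lower is near that of all genes. With TNF-α, 1 of the 10 (Ikbke) rose in control KD, beside 2.10% of all genes. In GSTM1 KD 4 of the 10 rose (Ddx58, Ifih1, Dhx58 and Tlr3), beside 2.35% of all genes. In control KD Ddx58 was at 1.08 (edgeR adjusted p = 0.0512) and Ifih1 at 1.09 (edgeR adjusted p = 0.0752). Dhx58 was at 0.57 and Tlr3 at 0.36 there. For the difference of the responses 0 of the 10 passed by edgeR.

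Of type I interferons, Ifna4 had 0 counts in every library. Ifnb1, the interferon-β gene, had 0 counts in all 4 basal libraries, where the depth would not show a level under 3 counts. After TNF-α stimulation the control KD libraries had 7 and 1 counts and those of GSTM1 KD 25 and 9 counts, a difference of 2.06 on the log2 scale (SE 0.753, edgeR adjusted p = 0.115). The receptor gene Ifnar1 was lower in TNF-α-treated GSTM1 KD cells than in control KD (-0.49, SE 0.0895, edgeR adjusted p = 0.0265), beside 8.92% of all genes. Ifnar2 did not pass (-0.41, edgeR adjusted p = 0.0985). At the basal level Ifnar1 differed by -0.36 (edgeR adjusted p = 0.0764). With TNF-α, Ifnar1 rose by 0.44 in control KD (SE 0.0791, edgeR adjusted p = 0.0362), beside 2.10% of all genes. In GSTM1 KD its response was 0.34 (edgeR adjusted p = 0.0964).

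The signal from the receptor runs through JAK kinases, STATs and IRFs. Of 8 such genes, 0 passed between GSTM1 KD and control KD without stimulation, beside 4.60% of all genes called higher and 5.62% lower. Under TNF-α 4 were higher in GSTM1 KD, beside 7.26% of all genes, and the list's median log2 fold change was 0.60. They included Irf9 (1.07, SE 0.158, edgeR adjusted p = 0.0178), Irf7 (1.54, SE 0.317, edgeR adjusted p = 0.0337) and Stat2 (1.22, SE 0.276, edgeR adjusted p = 0.0413). Stat2 and Irf9 encode parts of a complex that binds the ISRE, and Irf7 is itself induced by interferon. Irf1, which TNF-α induces through NF-κB, rose with TNF-α by 3.11 in control KD (SE 0.144, edgeR adjusted p = 0.000239) and by 3.22 in GSTM1 KD (SE 0.145, edgeR adjusted p = 0.000255). Between the knockdowns Irf1 differed by 0.09 after TNF-α stimulation (edgeR adjusted p = 0.656), so the 4 factors that rose did not include it.

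Among 4 feedback inhibitors, Usp18, which removes ISG15 and blocks the interferon receptor, was the 1 higher in GSTM1 KD after TNF-α stimulation (1.57, SE 0.344, edgeR adjusted p = 0.0387), beside 7.26% of all genes. Pias1, an inhibitor of STAT signalling, was the 1 lower without stimulation (-0.49, SE 0.107, edgeR adjusted p = 0.0453) and with TNF-α (-0.49, SE 0.112, edgeR adjusted p = 0.042), beside 5.62% and 8.92% of all genes. Socs1 was at 1.48 (edgeR adjusted p = 0.0568) and Socs3 at 0.19 (edgeR adjusted p = 0.733) in the latter comparison.

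Among 43 other interferon-stimulated effectors, 36 were tested at the basal level. There 4.60% of all genes were called higher and 5.62% lower. Ifi27 was higher (0.71, SE 0.14, edgeR adjusted p = 0.0377) and Oasl1 (-1.92, SE 0.418, edgeR adjusted p = 0.0456) and Cxcl10 (-1.45, SE 0.322, edgeR adjusted p = 0.0476) were lower in GSTM1 KD, with a median of 0 over the list and over all genes. After TNF-α stimulation 21 of 42 tested were higher and 0 lower by edgeR, beside 7.26% and 8.92% of all genes, and the log2 fold change was above 0 for all 42, with a median of 1.19. They included Iigp1 (2.52, SE 0.369, edgeR adjusted p = 0.0177), an interferon-inducible GTPase, and Rtp4 (1.38, SE 0.242, edgeR adjusted p = 0.0245). Lgals3bp (0.90, SE 0.106, edgeR adjusted p = 0.0124) and Ifi27 (0.69, SE 0.0944, edgeR adjusted p = 0.0159) were also higher in GSTM1 KD. These 2 differed by 0.76 (edgeR adjusted p = 0.0757) and 0.71 without stimulation, and neither passed in response to TNF-α. Without GSTM1 KD replicate 1 no effector passed, in the fit where no gene passed at all. In TNF-α-treated GSTM1 KD cells 41 of the 42 effectors were higher in replicate 1 than in replicate 2, at a median ratio of 1.77 in CPM, while the median ratio was 1.08 for the TNF and NF-κB response list and 0.997 for all genes tested. The high Ifit values of that library thus came with high values of other interferon-stimulated genes.

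With TNF-α, 23 of 42 effectors rose in control KD (median log2 fold change 1.69) and 35 of 42 rose in GSTM1 KD (median 2.97), beside 2.10% and 2.35% of all genes. Leaving out any of the 4 control KD libraries left 8 to 11 effectors past the threshold in control KD, in fits that called 1.04% to 1.81% of all genes higher. In GSTM1 KD 14 and 9 passed without replicate 1 and replicate 2 of the unstimulated libraries, where 0.508% and 0.468% of all genes were called higher, and 26 and 36 without replicate 1 and replicate 2 of the TNF-α libraries. With genes at or under 3 counts in both basal libraries set at their lower bound, the medians were 1.66 and 2.97. Cxcl10, a chemokine gene, rose by 6.41 in control KD (SE 0.361, edgeR adjusted p = 0.00045) and by 8.35 in GSTM1 KD (SE 0.397, edgeR adjusted p = 0.000255). Rsad2, which encodes the antiviral enzyme viperin, rose by 4.27 (SE 0.445, edgeR adjusted p = 0.00514) and 6.67 (SE 0.493, edgeR adjusted p = 0.00118). The difference of the responses was above 0 for 40 of 42 effectors (median 1.41), and 0 of them passed by edgeR while 8 passed by DESeq2.

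Genes of the TNF and NF-κB response gave other values in the same libraries. Of 20, under TNF-α 12 were lower and 0 higher in GSTM1 KD than in control KD, beside 8.92% and 7.26% of all genes (median -0.94). Among the 12 were Cxcl2 (-2.93, SE 0.288, edgeR adjusted p = 0.0106), Csf2 (-2.87, SE 0.346, edgeR adjusted p = 0.0129), Birc3 (-1.01, SE 0.122, edgeR adjusted p = 0.0129) and Tnfaip2 (-2.30, SE 0.295, edgeR adjusted p = 0.014). At the basal level 7 of 19 tested were lower and 0 higher, beside 5.62% and 4.60% of all genes (median -1.16), led by the chemokine gene Ccl2 (-3.38, SE 0.428, edgeR adjusted p = 0.0194). In response to TNF-α 17 of 20 rose in control KD and 16 of 20 in GSTM1 KD, beside 2.10% and 2.35% of all genes. The median difference of their responses was -0.02, beside 1.41 for the effectors and 0.02 for all genes.

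**Figure D5:**
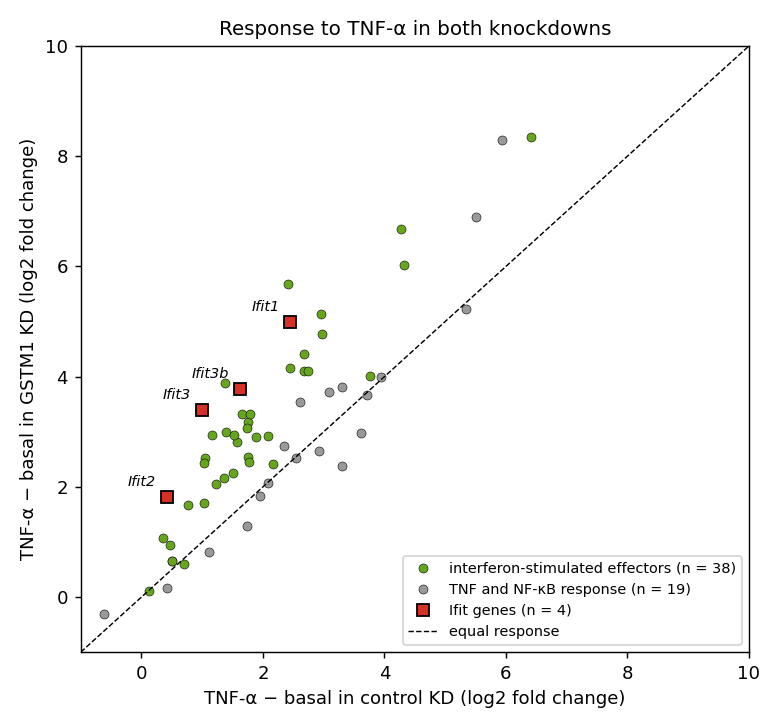
Log2 fold change of TNF-α against the basal level in control KD (horizontal) and GSTM1 KD (vertical) for the Ifit genes, other interferon-stimulated effectors and TNF and NF-κB response genes, leaving out genes at or under 3 counts in both basal libraries of a knockdown. The dashed line marks equal responses, and the Ifit genes lie above it.

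Over the 8 libraries the levels of the members (log2 CPM) correlated with each other at Pearson's r of 0.941 to 0.976. The libraries share 4 treatments, so these values describe a pattern of group levels and replicate differences, and carry no test. Among 15332 genes, those most like Ifit1 were Irgm2 (r = 0.995), Slfn8 (r = 0.992) and Mov10 (r = 0.992). The genes nearest to Ifit2 were Slc25a22 (r = 0.992), Tlr3 (r = 0.99) and Eif2ak2 (r = 0.988), and those nearest to Ifit3 were Stat2 (r = 0.99), Usp18 (r = 0.984) and Slfn8 (r = 0.98). Ifit3b was most like Oasl2 (r = 0.994), Irf7 (r = 0.991) and Ifih1 (r = 0.991). Most of these genes are known to be induced by interferon, while Slc25a22 encodes a mitochondrial glutamate carrier.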

How the data were processed

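mRNA was measured by RNA-seq in 8 libraries. Per the labels and the study's methods, the authors mapped reads to GRCm38 with STAR 2.5.4b and quantified them with RSEM 1.3.0, which divides reads that fit several transcripts among them. The deposited expected counts are estimated fragments per gene and are not normalized. The deposited TPM values are scaled per effective length and to the same total in each library, and were used for levels only. The deposited FPKM values were not used here. The annotation release used for counting is not given in the sources used here.

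Expected counts, rounded to integers, were analysed with edgeR 4.0.16 in R 4.3.3 (TMM factors, filterByExpr, quasi-likelihood F-test, Benjamini-Hochberg adjustment over all genes tested at 0.05). Each state's 4 libraries gave the comparison between knockdowns. Responses to TNF-α and their difference used all 8 libraries, and no test of Ifit1 is given, since its values in all groups bear on its choice. DESeq2 1.42.0, the authors' tool, was an alternative, beside other scalings, filters, a replicate block, effective length offsets and leaving out each library. The procedure was tested on simulated data. Exact tests cannot reach 0.05 with 2 libraries in each group. Depth limits detection to about 3 counts, a floor for counting error only. The members and gene lists were chosen with earlier results of these data known. Genes named are the members, other Ifit genes, Gstm1, up to 4 genes per list and comparison (lowest p among genes past the threshold with separate groups), and the 3 genes most like each member. Further list genes (Ifnb1, Ifna4, Ifnar2, Socs1, Socs3, Irf1 between knockdowns) were named after their values were seen. Promoters came from RefSeq and transcripts from GENCODE M21 (Python 3.11.15, Biopython 1.88, matplotlib 3.10.9). Some single genes of the lists are left out of the text.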

Additional observations from a re-analysis of the deposited data

Results flagged for a closer look

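For 3 members the GSTM1 KD libraries were on opposite sides of the control KD libraries, in CPM, in the 2 states, although the basal differences of Ifit2 and Ifit3 did not pass by edgeR. Libraries lay on opposite sides in this way, in either order, for 0.988% of the 14379 genes tested in both states, and Ifit1 was chosen for this pattern. Ifit3b had the same signs (-0.09 and 2.04), with overlapping libraries at the basal level. For Ifit1 both GSTM1 KD libraries were below both control KD libraries at the basal level (log2 fold change -0.89) and above both after TNF-α stimulation (1.63), a difference between the states of 2.54; these values chose the family and were not tested. Ifit2 gave -0.31 (edgeR adjusted p = 0.183) and 1.07, a difference of 1.41 (adjusted p = 1 by edgeR and 0.0343 by DESeq2). Ifit3, whose nearest basal libraries were level in TPM, gave -0.82 (edgeR adjusted p = 0.15) and 1.56, a difference of 2.41 (adjusted p = 1 by edgeR and 0.00104 by DESeq2).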

How the results depend on the processing

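The direction of each member's difference was kept in all alternatives, except that Ifit3b at the basal level was 0.52 without control KD replicate 2 and 0.06 without GSTM1 KD replicate 2 (-0.54 to 0.52 over the libraries left out). Between GSTM1 KD and control KD at the basal level, 0 of the 3 tested Ifit genes were lower, against 1 (Ifit3) by DESeq2, without the filter on low counts and with a replicate block; leaving out each library gave 0 to 1. For effectors, 1 was higher and 2 were lower, against 3 higher by DESeq2, 4 and 5 without the filter, 6 and 5 with the replicate block, and 2 and 1 with all 8 libraries in the fit or with effective length offsets; a minimum of 10 counts left 1 lower, and leaving out each library gave 0 to 9 higher and 0 to 2 lower, in fits that called 0.00643% to 17.2% of all genes higher. After TNF-α stimulation the 3 Ifit genes passed in every alternative but that without GSTM1 KD replicate 1 (0 to 3 over the libraries left out; that fit called 0 of 14822 genes), and the 21 effectors became 33 by DESeq2, 37 without the filter and 34 with the replicate block (0 to 31). For the response in control KD, 0 of the 3 tested Ifit genes became 1 by DESeq2 and 2 without the filter (0 to 0 over the libraries left out), and the 23 effectors became 36 without the filter and 12 with only the 4 control KD libraries (8 to 11). For the response in GSTM1 KD, the 3 tested Ifit genes became 0 to 3 and the 35 effectors 9 to 36 over the libraries left out. For the difference of the responses, 0 Ifit genes and 0 effectors became 3 and 8 by DESeq2 and 3 and 27 without the filter. Over all genes, 1524 calls at the basal level became 2522 by DESeq2, 3957 without the filter, 4712 with the block and 2762 with 8 libraries. After TNF-α stimulation 2360 became 4540 without the filter and 4302 with the block. The 403 calls of the response in control KD became 761, 1255 and 988 in turn, and 72 with 4 libraries; the 406 in GSTM1 KD became 647, 1050 and 808, and 691 with 4 libraries; the 0 of the difference became 27 by DESeq2 and 134 without the filter. Leaving out each library gave 1 to 5256 calls at the basal level (5256 without control KD replicate 2, 1 and 3 without GSTM1 KD replicate 1 and replicate 2), 0 to 5028 after TNF-α stimulation (0 and 94 without GSTM1 KD replicate 1 and replicate 2), 180 to 313 for the response in control KD, 74 to 255 for that in GSTM1 KD and 0 to 2 for the difference. The causes were not tested. Same-numbered replicates deviated together (correlations of 0.142 to 0.499 between groups), but 2 shared numbers do not establish a pairing; with the replicate block Ifit3 at the basal level was -0.77 (edgeR adjusted p = 0.0145).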
